A study of Homo sapiens with 12 samples.

Results

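The SLC25 family of mitochondrial carriers was followed in RNA of the established human melanoma line WM35, hybridised to 12 positions of 1 Illumina BeadChip (1 colour). A probe counted as a member if its annotated symbol began with SLC25A and it was detected at a detection p under 0.05 on at least 2 arrays. Of 62 listed probes 43 met this rule, for 30 of 45 symbols, out of 24325 probes that passed the same filter in the whole series. These 43 probes covered 28 carrier genes with 40 probes, the pseudogene SLC25A51P4 with 1 probe and the antisense RNA SLC25A21-AS1 with 2 probes, and 35 of the 43 were detected on all 12 arrays. The control group is 2 arrays of cells with DMSO alone, the vehicle, and their titles state no time. Of trifluridine (TFT), a nucleoside drug that resembles thymidine and enters DNA, there are 3 arrays at 8 h and 2 at 24 h. Of lactimidomycin (LTM), which stops ribosomes during elongation, there are also 3 arrays at 8 h and 2 at 24 h. Both drugs were used at the concentration that inhibited by 75%, as found at 72 h, and all groups shared the same line, medium and vehicle background. WM35 is a single line, and nothing in the labels says that replicates were separate cultures, so the p-values reflect no more than the spread among these samples, which may be technical.

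The members of this family are membrane proteins, most of them in the inner mitochondrial membrane, that exchange metabolites between the matrix and the cytosol. They are encoded in the nucleus, translated in the cytosol and imported without a cleaved presequence in most cases. Through them pass ADP and ATP, phosphate, the intermediates of the citric acid cycle, amino acids, acylcarnitines, cofactors and iron.

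Starts of 3 genes are shown because these carried the largest rise and the largest fall at 24 h of LTM and a pair of probes that changed in opposite directions between 8 and 24 h. Each sequence is the 250 bases just upstream of a RefSeq start (GRCh38.p14), written 5′ to 3′ on the gene's strand. Capitals mark a match to TGACGTCA (CREB/ATF) or to CCGGAAG (ETS, on either strand, so CTTCCGG where the match is on the opposite strand).
SLC25A25 start 1: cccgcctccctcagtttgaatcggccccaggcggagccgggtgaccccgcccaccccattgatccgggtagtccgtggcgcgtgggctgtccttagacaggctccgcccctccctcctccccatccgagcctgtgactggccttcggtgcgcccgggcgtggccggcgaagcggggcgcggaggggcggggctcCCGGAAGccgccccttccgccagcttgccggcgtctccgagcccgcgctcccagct
SLC25A25 start 3: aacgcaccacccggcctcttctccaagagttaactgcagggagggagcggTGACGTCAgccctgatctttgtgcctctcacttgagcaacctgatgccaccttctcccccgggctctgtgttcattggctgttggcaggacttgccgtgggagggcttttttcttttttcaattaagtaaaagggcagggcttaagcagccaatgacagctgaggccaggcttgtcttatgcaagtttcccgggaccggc
SLC25A1: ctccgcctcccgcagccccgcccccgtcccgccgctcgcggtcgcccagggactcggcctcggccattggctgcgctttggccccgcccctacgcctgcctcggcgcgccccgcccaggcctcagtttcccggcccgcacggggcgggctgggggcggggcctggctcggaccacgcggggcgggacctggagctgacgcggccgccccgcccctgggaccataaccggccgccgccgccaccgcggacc
SLC25A24 start 1: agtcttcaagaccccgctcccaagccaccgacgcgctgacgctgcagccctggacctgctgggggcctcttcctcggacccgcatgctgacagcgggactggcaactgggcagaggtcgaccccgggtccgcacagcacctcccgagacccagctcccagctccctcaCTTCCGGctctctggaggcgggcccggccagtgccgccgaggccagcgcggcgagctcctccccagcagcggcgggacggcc
SLC25A24 start 2: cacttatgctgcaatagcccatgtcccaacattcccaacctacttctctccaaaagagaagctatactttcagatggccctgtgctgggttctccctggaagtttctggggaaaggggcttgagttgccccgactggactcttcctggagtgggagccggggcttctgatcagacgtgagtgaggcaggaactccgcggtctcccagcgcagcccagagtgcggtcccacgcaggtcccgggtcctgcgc
SLC25A25 lies on the plus strand, and start 1 is the window chr9:128067982-128068231, with its ETS match 56 to 50 bases upstream of the start. Its start 3 is chr9:128098257-128098506, with the CREB/ATF match 200 to 193 bases upstream. SLC25A1 lies on the minus strand at chr22:19178737-19178986 and held no match to the 4 motifs searched. SLC25A24 also lies on the minus strand, and start 1 is chr1:108200344-108200593, with the ETS match 82 to 76 bases upstream. SLC25A24 start 2, at chr1:108192836-108193085, held no match. SLC25A25 start 2 (chr9:128091205-128091454) also held no match and is not printed.

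Both strands of all 35116 RefSeq windows were searched, 37 of them belonging to 28 member genes. TGACGTCA was in 1.65% of all windows and in 2 member windows, of SLC25A25 and SLC25A36. CCGGAAG was in 8.52% of all windows and in 8 member windows, those of SLC25A4, SLC25A20, SLC25A22, SLC25A24, SLC25A25, SLC25A26, SLC25A38 and SLC25A46. CACGTG (the E-box) was in 6.34% of all windows and in 5 member windows, those of SLC25A13, SLC25A26, SLC25A36, SLC25A38 and SLC25A46. TGATGNAA (ATF4 and C/EBP, where N is any base) was in 3.14% of all windows and in 1 member window, of SLC25A11. A match describes letters only.

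Between 19485 and 20551 of 47230 probes were detected on an array, and 37 to 41 of the 43 members that met the rule. The labelled cell type was checked against melanocytic markers. MITF, SOX10, EDNRB and ERBB3 were detected on all 12 arrays and PMEL on 4, while MLANA, TYR, TYRP1 and S100B were detected on 0. Of the other cell types' markers, the keratin KRT8 and the proteoglycan LUM were detected on all 12 arrays, and the 3 blood markers on 0.

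Over the carriers, 2 arrays were unlike the others of their label, and for a further array most members lay nearer to another label. After each probe was centred on its mean, TFT 8 h replicate 3 correlated over the 43 members at 0.90 and 0.87 with LTM 8 h replicates 2 and 3, but at -0.59 and -0.45 with TFT 8 h replicates 1 and 2. For 34 of the 43 members it lay nearer to the other arrays labelled LTM 8 h than to those of its own label. LTM 8 h replicate 1 correlated at 0.88 with TFT 24 h replicate 2 and at -0.61 and -0.58 with LTM 8 h replicates 2 and 3. For 35 of the 43 members it lay nearer to TFT 24 h replicate 2. TFT 24 h replicate 1 correlated at 0.81 and 0.75 with TFT 8 h replicates 1 and 2 and at 0.65 with the other TFT 24 h array. For 26 of the 43 members it lay nearer to TFT 8 h, with median distances of 0.12 to TFT 8 h and 0.18 to its own label. The first is a distance to the mean of 2 arrays and the second to 1 array, which varies more than a mean. It thus stood apart less clearly than the other 2. Groups were kept as labelled in the fit of 12 arrays. Each comparison is also given for the 9 arrays without these 3. That leaves TFT 24 h with 1 array, whose spread is taken from the other groups. The 3 arrays were set apart by their own measured values, so the smaller spread on the 9 arrays follows in part from that choice. Errors and p-values on the 9 arrays are conditional on it.

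**Figure D1:**
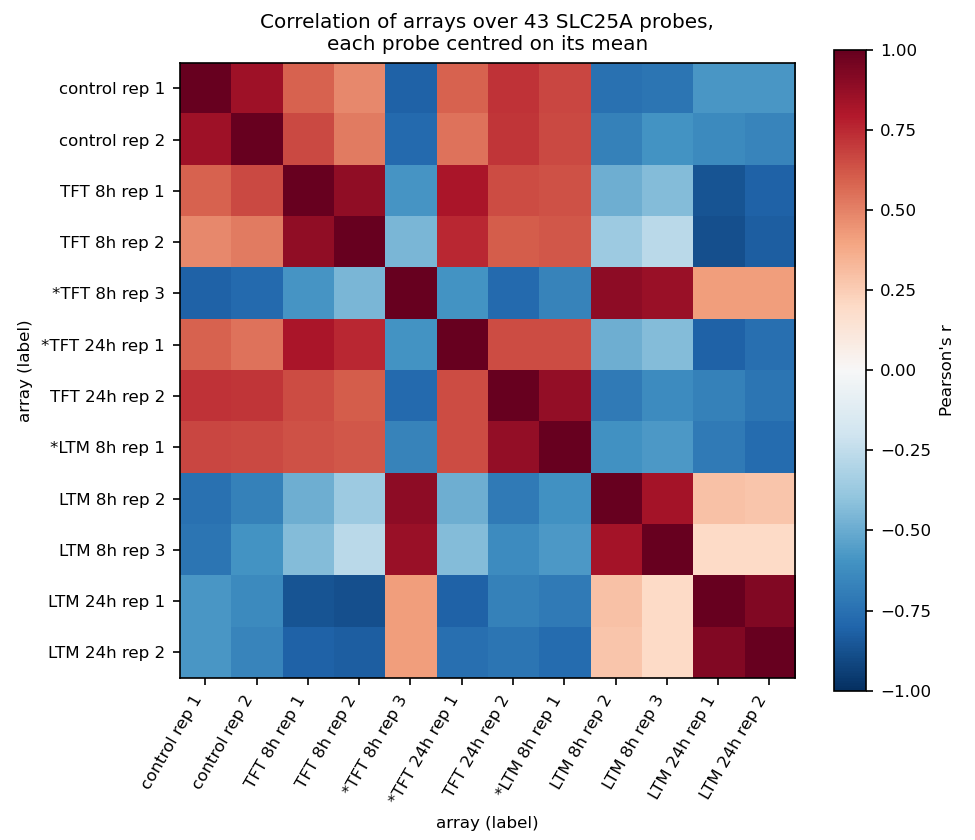
Pearson's r between each pair of the 12 arrays (rows and columns, by label) over the 43 member probes, each centred on its mean; an asterisk marks the 3 arrays nearer to another label over most members. TFT 8 h replicate 3 sits at 0.90 and 0.87 with LTM 8 h replicates 2 and 3, and LTM 8 h replicate 1 at 0.88 with TFT 24 h replicate 2.

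At 24 h of LTM the carriers of citrate (SLC25A1), dicarboxylates (SLC25A10) and oxoglutarate (SLC25A11) fell, while the calcium-regulated ATP-Mg/phosphate carrier SLC25A25, the carnitine-acylcarnitine carrier SLC25A20 and the outer membrane member SLC25A46 rose. Of the 43 probes 19, of 17 genes, passed an adjusted p of 0.05 against control (44.2%), 12 higher and 7 lower. Without control replicate 2 the count was 12 (26.2% of all probes passed in that fit), and without LTM 24 h replicate 2 it was also 12 (25.3%). With all 12 arrays 40.9% of all probes passed in the same comparison, 20.0% higher and 20.9% lower, so the family's share was near that of all probes. The median log2 fold change was 0.15 over the members and -0.05 over all probes. All tests are limma's moderated test with Benjamini-Hochberg adjustment over the 24325 probes. Each array measured equal amounts of RNA from a whole culture, so fewer cells of a type and less RNA per cell cannot be told apart. Marker sums were taken from the deposited signal before normalization, so they also follow the brightness of an array. The mean signal of all probes was 415.44 and 403.15 on the control arrays and 339.95 and 314.62 on LTM 24 h. The summed signal of the 9 measured melanocytic markers was 4850.4 to 5291.4 on the control arrays, 2977 to 3357.2 on LTM 8 h, 3566.2 to 4290.5 on TFT 24 h, 3592.1 to 4104.2 on TFT 8 h and 1924.5 to 1964.7 on LTM 24 h. The epithelial markers summed to 76.3 to 102.8 on control, 84.4 to 160.3 on TFT 8 h, 104.7 to 159.2 on TFT 24 h, 124 to 154.3 on LTM 8 h and 139.9 to 173.2 on LTM 24 h. Of these only KRT8 was detected on all 12 arrays, with EPCAM on 2 and KRT5 and KRT14 on 0. The fibroblast markers summed to 62 to 75.9 on control, 39 to 77.9 on TFT 8 h, 63.8 to 115.6 on TFT 24 h, 57.2 to 110.4 on LTM 8 h and 123.2 to 134.2 on LTM 24 h, with LUM alone detected on all 12 arrays, PDGFRA on 5, DCN on 3 and COL1A1 on 1. The part of these shifts in the members' changes was not tested.

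**Figure D2:**
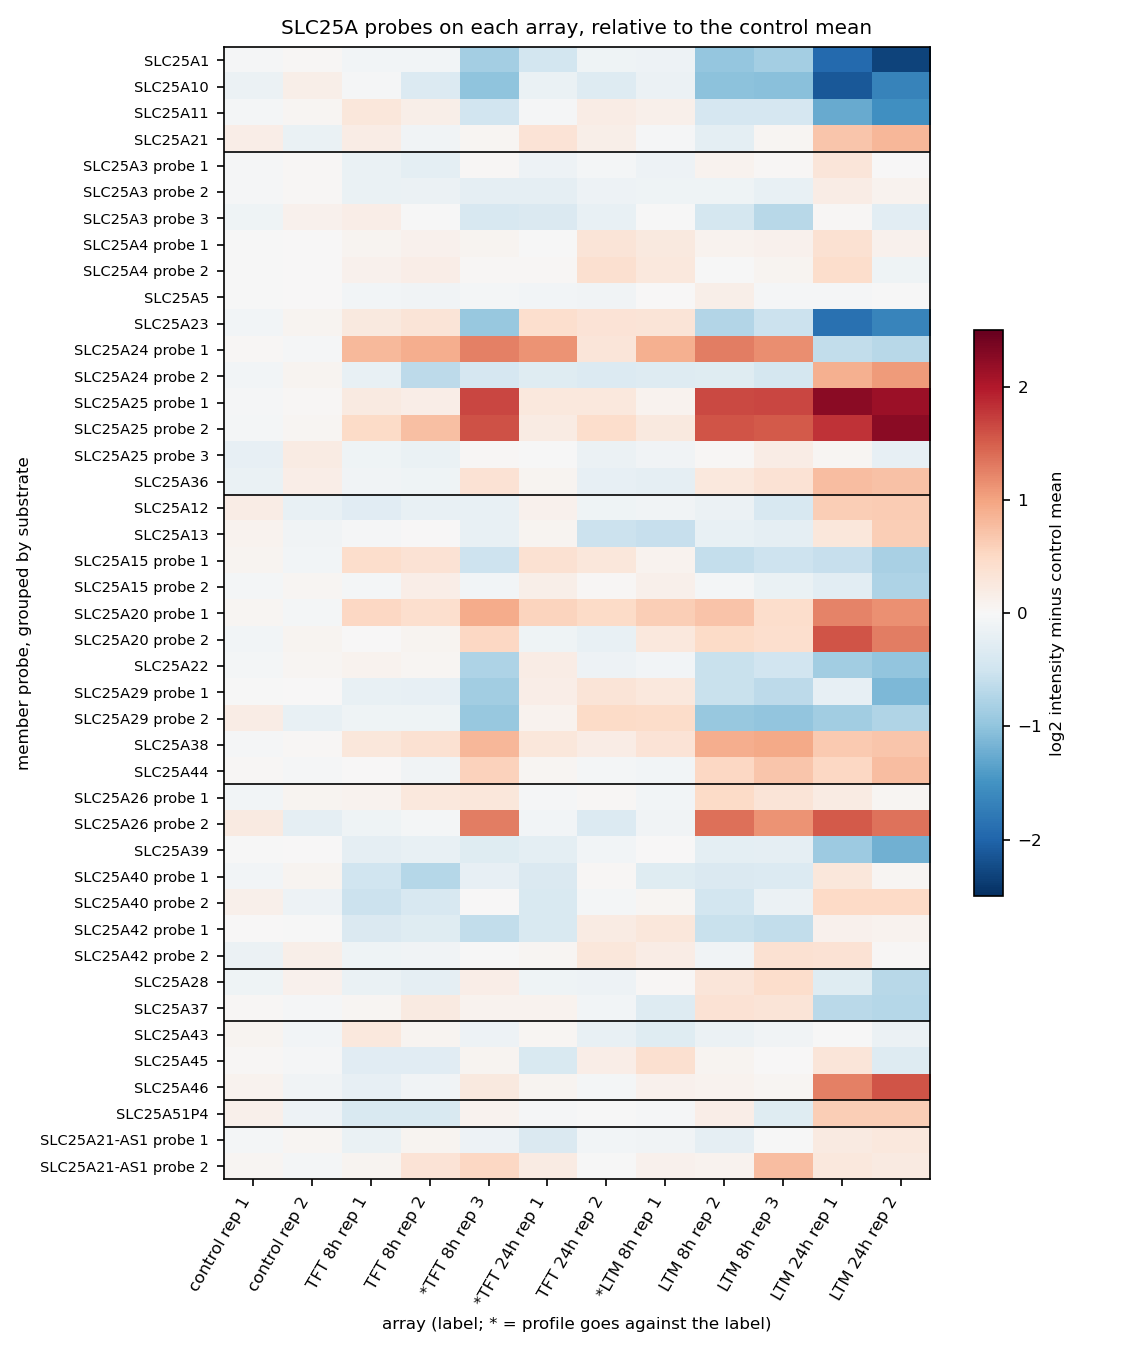
Log2 intensity minus the control mean (colour) of the 43 member probes (rows, grouped by substrate) on each of the 12 arrays (columns, by label; an asterisk marks the 3 arrays nearer to another label over most members). The LTM 24 h columns hold both the lowest values, for SLC25A1 and SLC25A10, and the highest, for SLC25A25.

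Among the carriers of di- and tricarboxylates 3 of 4 probes fell at 24 h of LTM and 1 rose, where 20.9% of all probes fell and 20.0% rose. SLC25A1 (chr22:19175581-19178736) is the citrate carrier, which exports citrate for fatty acid and sterol synthesis. SLC25A1 read 8.55 and 8.60 as log2 intensity on the control arrays, 8.50, 8.50 and 7.73 on TFT 8 h, 8.12 and 8.46 on TFT 24 h, 8.45, 7.60 and 7.73 on LTM 8 h, and 6.63 and 6.26 on LTM 24 h, in the order of the replicate numbers. The LTM 24 h arrays were the lowest of all, and the low TFT 8 h array and the high LTM 8 h array were among those nearer to another label. SLC25A1 fell by 2.13 on the log2 scale (SE 0.32, adjusted p = 0.000485), which is 4.38-fold.

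SLC25A10 (chr17:81712284-81721012), the dicarboxylate carrier, exchanges malate and succinate for phosphate. SLC25A10 read 8.81 and 9.12 on control, 8.94, 8.62 and 7.96 on TFT 8 h, 8.80 and 8.64 on TFT 24 h, 8.81, 7.94 and 7.91 on LTM 8 h, and 6.85 and 7.29 on LTM 24 h. Its 2 LTM 24 h arrays lay below the other 10, and it fell by 1.89 (SE 0.35, adjusted p = 0.0016). SLC25A11 (chr17:4937130-4940046), the oxoglutarate carrier of the malate-aspartate shuttle, read 8.23 and 8.32 on control, 8.55, 8.43 and 7.79 on TFT 8 h, 8.24 and 8.47 on TFT 24 h, 8.40, 7.85 and 7.86 on LTM 8 h, and 7.02 and 6.74 on LTM 24 h. It fell by 1.40 (SE 0.27, adjusted p = 0.00191), again with the LTM 24 h arrays below all others. These 3 calls held whichever of the 4 arrays of this comparison was left out, with adjusted p up to 0.0249.

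SLC25A21 (chr14:36677921-37172606), which carries oxodicarboxylates such as oxoadipate, was undetected on both control arrays and was detected on both LTM 24 h arrays. It read 4.93 and 4.61 on control and 5.46 and 5.59 on LTM 24 h. Its mean on LTM 24 h was 1.52-fold above a limit set by the control arrays. That limit was, on each control array, the higher of the lowest detected signal and the probe's own signal, and carries no error. The fitted log2 difference was 0.76, with a 95% interval from 0.36 to 1.15 (adjusted p = 0.00617). Without control replicate 2 the call was lost (adjusted p = 0.0686). The antisense RNA at the same locus, SLC25A21-AS1 (chr14:37172026-37173794), has 2 probes, both undetected on the control arrays. Its probe 1 was detected on both LTM 24 h arrays but did not pass (adjusted p = 0.283). The fitted log2 difference of probe 1 was 0.24, with a 95% interval from -0.12 to 0.60, which includes no change, so no fold is given. Its probe 2 was detected on 0 LTM 24 h arrays.

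The ATP-Mg/phosphate carriers, which set the size of the adenine nucleotide pool in the matrix, split at 24 h of LTM. SLC25A23 (chr19:6436081-6459792) read 7.62 and 7.75 on control, 7.93, 8.00 and 6.74 on TFT 8 h, 8.11 and 8.03 on TFT 24 h, 8.01, 6.95 and 7.15 on LTM 8 h, and 5.81 and 6.04 on LTM 24 h. It fell by 1.76 (SE 0.41, adjusted p = 0.00549), the LTM 24 h arrays did not overlap with any other group, and the call held without any 1 of the 4 arrays (adjusted p up to 0.0412). SLC25A25 (chr9:128068232-128109245) has 2 probes for 1 annotated transcript, and both rose. Its probe 1 read 9.45 and 9.50 on control, 9.70, 9.63 and 11.15 on TFT 8 h, 9.75 and 9.74 on TFT 24 h, 9.56, 11.12 and 11.15 on LTM 8 h, and 11.72 and 11.61 on LTM 24 h. High values were thus found on the LTM 24 h arrays, on LTM 8 h replicates 2 and 3 and on the array labelled TFT 8 h replicate 3, and nowhere else.

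Probe 1 of SLC25A25 rose by 2.19 at 24 h of LTM (SE 0.54, adjusted p = 0.00781), which is 4.57-fold. Probe 2 read 5.68 and 5.76 on control and 7.53 and 7.97 on LTM 24 h, and it rose by 2.03 (SE 0.44, adjusted p = 0.0037). Probe 3, annotated to the other transcript, was detected on 1 control array and 0 LTM 24 h arrays and gives no fold (adjusted p = 0.761). The calls of probes 1 and 2 held without any 1 of the 4 arrays, with adjusted p up to 0.0472. The 3 arrays nearer to another label widen the error: without them the SE of probe 1 was 0.12 in place of 0.54, with the same fold change.

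**Figure D3:**
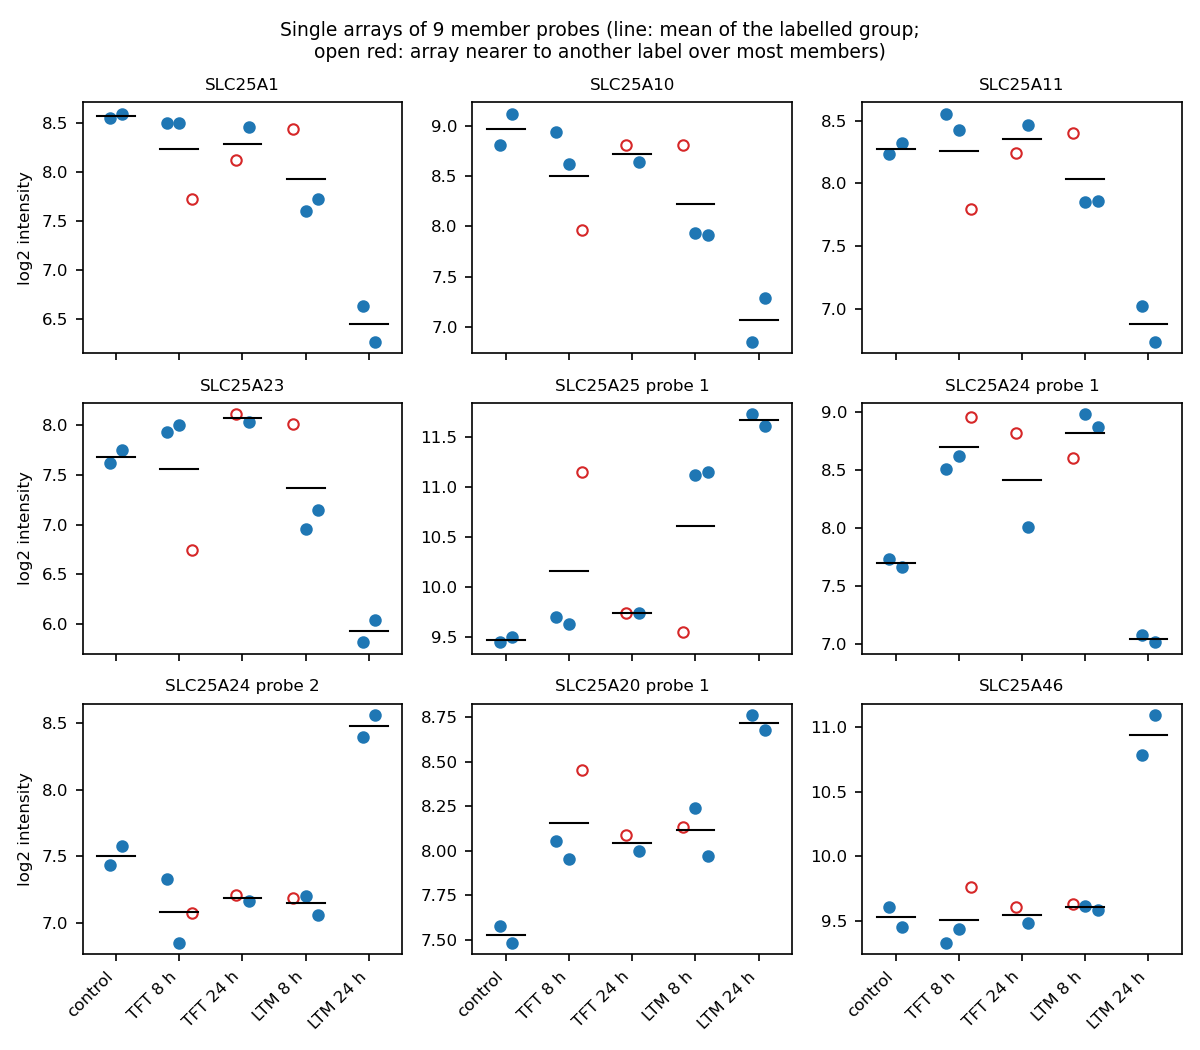
Log2 intensity (vertical axis, a separate scale for each panel) of 9 member probes on the single arrays of the 5 labelled groups; each point is 1 array, lines are group means, and open red points are the 3 arrays nearer to another label over most members. For SLC25A25 probe 1 the open point in TFT 8 h (11.15) lies beside the other 2 LTM 8 h arrays (11.12 and 11.15), and the open point in LTM 8 h (9.56) beside the controls.

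The paralog SLC25A24 (chr1:108134043-108200343) gave opposite values on 2 probes that are annotated to the same transcript. Probe 1 read 7.73 and 7.67 on control, 8.51, 8.62 and 8.96 on TFT 8 h, 8.82 and 8.01 on TFT 24 h, 8.60, 8.98 and 8.87 on LTM 8 h, and 7.08 and 7.01 on LTM 24 h. Probe 2 read 7.43 and 7.58 on control, 7.33, 6.85 and 7.08 on TFT 8 h, 7.21 and 7.16 on TFT 24 h, 7.18, 7.20 and 7.06 on LTM 8 h, and 8.40 and 8.56 on LTM 24 h. Probe 1 was therefore above control on every TFT array and every LTM 8 h array and below it on both LTM 24 h arrays, while probe 2 was above control on the LTM 24 h arrays alone. At 24 h of LTM probe 2 rose by 0.97 (SE 0.18, adjusted p = 0.00144), a call kept without any 1 of the 4 arrays. Probe 1 differed by -0.65 and did not pass on 12 arrays (adjusted p = 0.0573), but passed on 9 arrays (adjusted p = 0.00126). A further probe, of another transcript and detected on 1 array, did not meet the rule for members.

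The bulk carriers of oxidative phosphorylation did not pass at 24 h of LTM. SLC25A5 (the adenine nucleotide translocase ANT2, which exchanges ADP for ATP) read 14.02 and 14.04 on control and 14.00 and 14.02 on LTM 24 h, a difference of -0.02 with a 95% interval from -0.33 to 0.28. The other translocase measured, SLC25A4 (ANT1), differed by 0.25 and 0.16 on its 2 probes (adjusted p = 0.264 and 0.569). The phosphate carrier SLC25A3 differed by 0.15, 0.14 and -0.13 on its 3 probes, of which the last is annotated to another transcript (adjusted p from 0.453 to 0.729). Translocase genes are close copies of each other, so their probes may share signal. SLC25A36, a carrier of pyrimidine nucleotides, rose by 0.75 (adjusted p = 0.0249) but held in only 1 of the 4 fits that left out an array, that without control replicate 2. In all, 4 of 13 probes for nucleotides and phosphate rose and 1 fell, beside 20.0% and 20.9% of all probes.

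Of the 11 probes for carriers of amino acids and carnitine 4 rose and 1 fell at 24 h of LTM, where 20.0% of all probes rose and 20.9% fell. SLC25A20 (chr3:48856926-48898882), which brings acylcarnitines into the matrix for fatty acid oxidation, rose on both probes. Probe 1 read 7.58 and 7.48 on control, 8.05, 7.95 and 8.45 on TFT 8 h, 8.09 and 8.00 on TFT 24 h, 8.13, 8.24 and 7.97 on LTM 8 h, and 8.76 and 8.68 on LTM 24 h. Every drug-treated array lay above both controls, and the LTM 24 h arrays were the highest. Probe 2 read 6.03 and 6.17 on control, 6.11, 6.16 and 6.62 on TFT 8 h, 6.0 and 5.91 on TFT 24 h, 6.37, 6.58 and 6.52 on LTM 8 h, and 7.68 and 7.37 on LTM 24 h. At 24 h of LTM the rises were 1.19 on probe 1 (SE 0.19, adjusted p = 0.000614) and 1.42 on probe 2 (SE 0.20, adjusted p = 0.000343), and both calls held without any 1 of the 4 arrays.

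SLC25A22, a glutamate carrier, read 9.65 and 9.76 on control and 8.83 and 8.72 on LTM 24 h, and fell by 0.93 (SE 0.28, adjusted p = 0.02). SLC25A38, which imports glycine for haem synthesis, read 8.48 and 8.54 on control and 9.16 and 9.21 on LTM 24 h, and rose by 0.68 (adjusted p = 0.0389). Both calls were lost whichever of the 4 arrays was left out, with adjusted p of 0.0631 to 0.105 for SLC25A22 and 0.107 to 0.145 for SLC25A38, while neither fold change turned its sign. The aspartate/glutamate carriers take part in the malate-aspartate shuttle. Of these SLC25A12 (aralar) rose by 0.62 (adjusted p = 0.0169), a call that held in 1 of 4 such fits (the one without control replicate 1), and SLC25A13 (citrin) differed by 0.45 (adjusted p = 0.137). The ornithine carrier SLC25A15 differed by -0.69 and -0.52 on its 2 probes (adjusted p = 0.099 and 0.0519), the basic amino acid carrier SLC25A29 by -0.66 and -0.81 (adjusted p = 0.169 and 0.171), and SLC25A44, a carrier of branched-chain amino acids, by 0.64 (adjusted p = 0.0771).

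For cofactors and glutathione 1 of 7 probes rose and 1 fell at 24 h of LTM, beside 20.0% and 20.9% of all probes. SLC25A39 (chr17:44319628-44324823), a glutathione carrier, read 11.37 and 11.38 on control, 11.15, 11.18 and 11.07 on TFT 8 h, 11.14 and 11.31 on TFT 24 h, 11.38, 11.14 and 11.16 on LTM 8 h, and 10.47 and 10.17 on LTM 24 h. It fell by 1.06 (SE 0.16, adjusted p = 0.000613), with no overlap between LTM 24 h and any other group and no call lost without 1 array. Its paralog SLC25A40 differed by 0.16 and 0.50 on its 2 probes (adjusted p = 0.557 and 0.105). SLC25A26, the carrier of the methyl donor S-adenosylmethionine, split by probe. Probe 2 read 6.30 and 5.85 on control, 5.97, 6.02 and 7.35 on TFT 8 h, 6.0 and 5.73 on TFT 24 h, 5.99, 7.45 and 7.20 on LTM 8 h, and 7.60 and 7.42 on LTM 24 h. It rose by 1.44 (SE 0.50, adjusted p = 0.0381), although leaving out any of the 4 arrays ended the call (adjusted p = 0.0778 to 0.184), whereas probe 1 of the same annotated transcript differed by 0.13 (adjusted p = 0.626). The carrier of coenzyme A, SLC25A42, differed by 0.09 on probe 1 (adjusted p = 0.827), and probe 2, detected on 0 control arrays and 1 LTM 24 h array, gives no fold.

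The mitoferrins import iron for haem and iron-sulphur clusters. SLC25A37 (mitoferrin-1) read 9.16 and 9.10 on control, 9.17, 9.34 and 9.22 on TFT 8 h, 9.21 and 9.06 on TFT 24 h, 8.81, 9.50 and 9.45 on LTM 8 h, and 8.45 and 8.42 on LTM 24 h. It fell by 0.69 (SE 0.21, adjusted p = 0.0238), a call lost without any 1 of the 4 arrays (adjusted p = 0.0771 to 0.107), and SLC25A28 (mitoferrin-2) differed by -0.50 (adjusted p = 0.0714). SLC25A46 (chr5:110738145-110765157), an outer membrane member that acts in mitochondrial dynamics, read 9.61 and 9.45 on control, 9.33, 9.44 and 9.76 on TFT 8 h, 9.60 and 9.48 on TFT 24 h, 9.63, 9.62 and 9.58 on LTM 8 h, and 10.78 and 11.09 on LTM 24 h. It rose by 1.41 (SE 0.18, adjusted p = 0.000227), the smallest adjusted p of the family in this comparison, and the 10 other arrays lay close together. The pseudogene SLC25A51P4 rose by 0.62 (adjusted p = 0.0329), a call that no fit without 1 of the 4 arrays kept (adjusted p up to 0.189). SLC25A43 and SLC25A45 differed by -0.08 and -0.01 and did not pass.

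On the 9 arrays the fold changes at 24 h of LTM are the same by construction and the errors are smaller. There 28 of the 43 members passed, 15 higher and 13 lower, against 54.3% of all probes (26.1% higher and 28.2% lower), and all 19 calls of the 12 arrays were among them. The 9 calls added include falls of both probes of SLC25A15 and SLC25A29, of SLC25A24 probe 1 and of SLC25A28, and rises of SLC25A13, SLC25A40 probe 2 and SLC25A44.

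At 8 h of LTM the outcome hung on the labels of single arrays. The p-values on the 9 arrays rest on arrays left out for their own values. With 12 arrays as labelled 0 of 43 members passed (limma, Benjamini-Hochberg), against 0% of all probes. In that fit 8 of 43 members had an unadjusted p under 0.05, beside 3831 of 24325 probes. With the 9 arrays, 2 of them LTM 8 h, 17 members passed (39.5%), 8 higher and 9 lower, against 29.8% of all probes (14.4% higher and 15.4% lower). Leaving out LTM 8 h replicate 1 alone gave 5 (11.6%), 4 higher and 1 lower, against 8.39% of all probes in that fit. The medians on 9 arrays were -0.07 over the members and -0.02 over all probes.

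On the 9 arrays SLC25A25 rose by 1.66 on probe 1 (SE 0.12, adjusted p = 1.88e-05) and by 1.56 on probe 2 (SE 0.17, adjusted p = 0.000136). As labelled, the same probes differed by 1.13 and 1.12 (adjusted p = 0.303 and 0.242). SLC25A26 probe 2 rose by 1.25, SLC25A24 probe 1 by 1.22, SLC25A38 by 0.93, SLC25A44 by 0.60 and SLC25A20 by 0.58 and 0.45 on its 2 probes (adjusted p from 0.000103 to 0.037). These 8 probes therefore included carriers of nucleotides, amino acids, acylcarnitine and a cofactor, but none of the mitoferrins, which differed by 0.35 (SLC25A37) and 0.37 (SLC25A28) and did not pass. SLC25A26 probe 1 again differed from probe 2, at 0.40 (adjusted p = 0.0529). Probe 2 of SLC25A24 lay on the other side of control from its probe 1, at -0.37, and did not pass (adjusted p = 0.133).

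The falls on the 9 arrays at 8 h of LTM were led by SLC25A10 (-1.04, SE 0.18, adjusted p = 0.00222), SLC25A29 probe 2 (-0.96, SE 0.15, adjusted p = 0.000986) and SLC25A1 (-0.91, SE 0.15, adjusted p = 0.00137). SLC25A23 (-0.63), SLC25A42 probe 1 (-0.58), SLC25A3 probe 3 (-0.56), SLC25A15 probe 1 (-0.55), SLC25A22 (-0.52) and SLC25A11 (-0.42) also fell (adjusted p from 0.00505 to 0.0459). The sister probes of SLC25A29, SLC25A42, SLC25A15 and SLC25A3 did not pass. SLC25A46 and SLC25A39, both called at 24 h, differed by 0.07 and -0.23 at 8 h (adjusted p = 0.753 and 0.25).

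**Figure D4:**
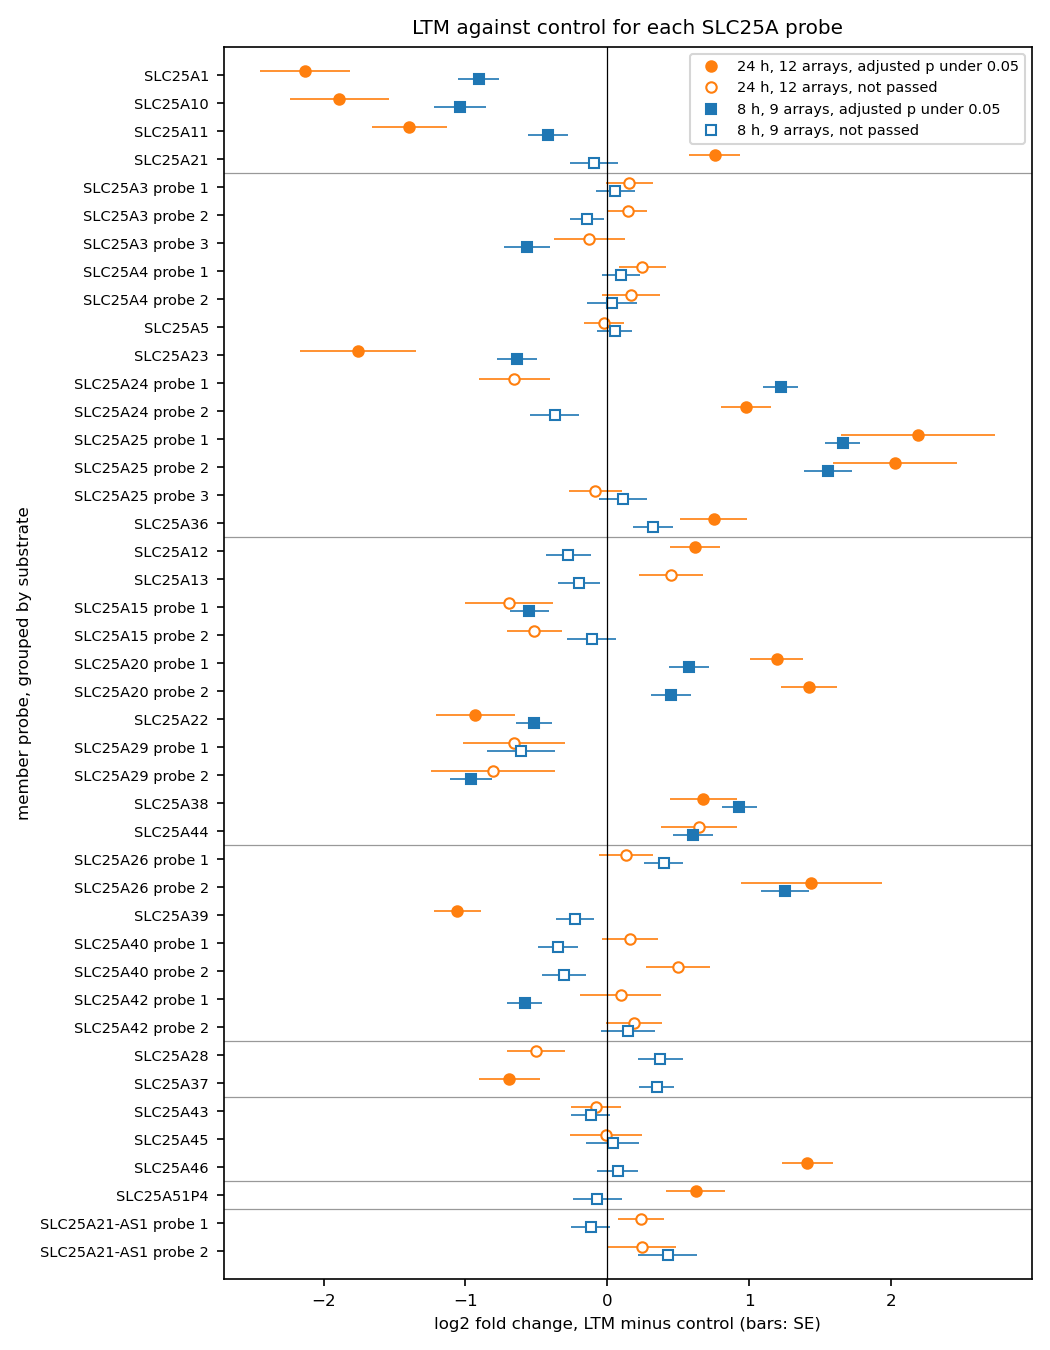
Log2 fold change against control (horizontal axis, bars are SE) of the 43 member probes, grouped by substrate, at 24 h of LTM on 12 arrays (orange circles) and at 8 h on 9 arrays (blue squares); filled symbols passed an adjusted p of 0.05, and probes undetected in a group are drawn at their fitted values. SLC25A24 probe 1 sits at 1.22 at 8 h and -0.65 at 24 h, whereas SLC25A1 sits at -0.91 and -2.13.

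TFT left few carriers past the threshold. At 8 h 0 of 43 members passed on 12 arrays (limma, Benjamini-Hochberg), against 0% of all probes. There 6 of 43 members had an unadjusted p under 0.05, beside 2200 of 24325 probes. On 9 arrays 1 member passed, against 1.66% of all probes (0.835% higher), and it was SLC25A24 probe 1, which rose by 0.86 (SE 0.13, adjusted p = 0.0156) with both arrays above both controls. As labelled, with replicate 3 also above control, it differed by 0.99 (SE 0.23, adjusted p = 0.342). Its probe 2 differed by -0.42 on 9 arrays (adjusted p = 0.234), SLC25A25 by 0.19 and 0.62 on probes 1 and 2 (adjusted p = 0.457 and 0.0983), and SLC25A20 probe 1 by 0.48 (adjusted p = 0.113). SLC25A1, SLC25A10 and SLC25A11, low under LTM, differed by -0.08, -0.19 and 0.21.

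At 24 h of TFT 0 of 43 members passed on 12 arrays (0% of all probes) and 0 on 9 arrays (0.382% of all probes), by limma with Benjamini-Hochberg adjustment. At an unadjusted p under 0.05 there were 2 of 43 members on 12 arrays, beside 1232 of 24325 probes. SLC25A24 probe 1 differed by 0.71 as labelled (adjusted p = 0.955) and by 0.31 on the single array of the 9 (95% interval -0.03 to 0.65). SLC25A20 probe 1 differed by 0.52 and 0.47 (adjusted p = 0.955 and 0.243). SLC25A25 probe 1 differed by 0.26 on 9 arrays, with an interval from -0.07 to 0.60.

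Between 8 and 24 h of LTM 18 of 43 members changed, 10 higher and 8 lower, against 33.4% of all probes (17.1% higher and 16.3% lower). On 9 arrays 23 did, 14 higher and 9 lower, against 43.3% of all probes (21.5% higher and 21.8% lower). SLC25A24 probe 1 had the largest fall, by 1.77 (SE 0.23, adjusted p = 0.000244), and probe 2 rose by 1.33 (SE 0.16, adjusted p = 0.000169). SLC25A46 rose by 1.33, SLC25A20 probe 2 by 1.03, and SLC25A12 by 0.83 (adjusted p from 0.000196 to 0.0025). SLC25A21, undetected on the 3 LTM 8 h arrays, had a mean at 24 h 1.48-fold above the same kind of limit, which carries no error. The adjusted p of its fitted difference was 0.00259. SLC25A1 fell by 1.48, SLC25A23 by 1.45, SLC25A11 by 1.16 and SLC25A10 by 1.15 (adjusted p from 0.00239 to 0.0164). The mitoferrins fell between the times, SLC25A37 by 0.82 (adjusted p = 0.00765) and SLC25A28 by 0.76 (adjusted p = 0.00867). Without LTM 24 h replicate 2 the count was 9 (17.8% of all probes), and the calls of SLC25A11, SLC25A23 and both mitoferrins were among those lost (adjusted p for SLC25A11 0.0539). The call of SLC25A10 was lost without LTM 24 h replicate 1 (adjusted p = 0.139).

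Between 8 and 24 h of TFT 0 members passed on 12 arrays (0% of all probes), by limma with Benjamini-Hochberg adjustment. An unadjusted p under 0.05 was reached by 0 of 43 members and by 699 of 24325 probes. On 9 arrays TFT 24 h is a single array, here as in the other comparisons with that group. No count is given there, and the median log2 difference was -0.0036 over the members and -0.0071 over all probes. The change with time was also compared between the drugs as an interaction term. In that test 10 of 43 members passed, 4 with the higher change under LTM and 6 with the lower, against 22.6% of all probes (11.4% and 11.1%). On 9 arrays 12 passed, 5 and 7, against 27.9% of all probes (13.8% and 14.2%).

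LTM against TFT at 24 h gave 24 of 43 members, 14 higher under LTM and 10 lower, against 40.2% of all probes (19.9% higher and 20.3% lower). The split was 11 higher and 12 lower when the arrays were only centred on their medians. On 9 arrays 26 members passed, 15 higher and 11 lower, against 49.2% of all probes (23.9% higher and 25.3% lower), and 22 members were called in both fits. The lowest differences were those of SLC25A23 (-2.14), SLC25A1 (-1.85), SLC25A10 (-1.65), SLC25A11 (-1.47) and SLC25A24 probe 1 (-1.37), with adjusted p from 0.00107 to 0.0034. SLC25A25 was higher by 1.92 and 1.71 on probes 1 and 2, SLC25A26 probe 2 by 1.65, SLC25A20 probe 2 by 1.57 and SLC25A46 by 1.39 (adjusted p from 0.000226 to 0.021). The call of SLC25A25 probe 1 and that of SLC25A26 probe 2 were lost whichever of the 4 arrays was left out (adjusted p = 0.0634 to 0.0756 and 0.0599 to 0.104), and that of SLC25A25 probe 2 without TFT 24 h replicate 1 or LTM 24 h replicate 2 (adjusted p up to 0.0809). The count was 13 without TFT 24 h replicate 1 (29.7% of all probes), 13 without TFT 24 h replicate 2 (28.6%), 13 without LTM 24 h replicate 1 (31.0%) and 10 without LTM 24 h replicate 2 (24.9%).

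LTM against TFT at 8 h gave 0 members on 12 arrays (limma, Benjamini-Hochberg), against 0% of all probes. An unadjusted p under 0.05 was reached by 0 of 43 members and by 843 of 24325 probes. On 9 arrays 14 members passed, 6 higher and 8 lower, against 27.3% of all probes (13.7% higher and 13.5% lower). SLC25A25 was higher under LTM by 1.47 and 0.94 on probes 1 and 2, SLC25A26 probe 2 by 1.33, SLC25A44 by 0.64 and SLC25A38 by 0.60. Lower under LTM were SLC25A15 probe 1 (-0.95), SLC25A23 (-0.92), SLC25A29 probe 2 (-0.86), SLC25A10 (-0.85) and SLC25A1 (-0.83). SLC25A24 probe 1, high at 8 h of both drugs, differed by 0.36 (SE 0.13, adjusted p = 0.0591).

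Other transporters of the inner membrane outside the family are given for comparison at 24 h of LTM. Of 12 probes 0 rose and 6 fell, with a median of -0.53, where 20.0% of all probes rose and 20.9% fell. SFXN5 and SFXN2, of the sideroflexins, fell by 1.44 and 0.81, LETM1, a cation exchanger, by 1.01, the pyruvate carrier subunits MPC1 and MPC2 by 0.91 (1 of its 2 probes) and 0.87, and ABCB10 by 0.73 (adjusted p from 0.00311 to 0.0389). MTCH2, a carrier-like protein of the outer membrane, fell by 0.78 as 1 of 4 probes of carriers under other symbols. Of the 8 probes for the import pathway of carriers, the receptor TOMM70 rose by 0.68 and the chaperone TIMM10 fell by 0.61. At 8 h of LTM 0 of these 8 import probes passed on the 12 arrays as labelled (0% of all probes), with a median of 0.40. On 9 arrays 6 of the 8 rose and 0 fell, where 14.4% of all probes rose and 15.4% fell. The median there was 0.57 beside -0.02 over all probes, and TIMM8A rose by 0.93 and TIMM10B by 0.90. These calls on 9 arrays are conditional on leaving out arrays for their own values.

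Members that did not meet the detection rule were 19 probes, 12 detected on 0 arrays and 7 on 1 array. They held all listed probes of 15 symbols, among them SLC25A16, SLC25A18, SLC25A27, SLC25A30, SLC25A32 and SLC25A33, for which no level is given.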

How the data were processed

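Groups and replicate numbers came from the labels. The authors deposited a background-subtracted linear intensity per probe and array, exported from GenomeStudio per the submitters' processing notes (its version is not given in the sources used here), and a detection p-value for each, per the file headers. A second deposited table of linear intensities, whose normalization is not stated, served as an alternative. Its columns correlated by rank with their own arrays at 0.969 to 0.979 and with others at 0.919 or less, its scale was linear and its genes uncentred, and in the order of the groups its column medians were 24.3 and 24.4 (control), 25.2, 25.0 and 24.0 (TFT, 8 h), 24.2 and 25.0 (TFT, 24 h), 24.7, 24.5 and 24.5 (LTM, 8 h), 23.8 and 23.5 (LTM, 24 h).

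Signals were corrected with limma 3.58.1 in R 4.3.3 (neqc: normexp from the detection p-values, offset 16, quantile normalization, log2). Probes detected at p under 0.05 on at least 2 of 12 arrays were kept. The 12 arrays entered 1 fit of group means (lmFit, eBayes, two-sided, 7 residual degrees of freedom, 4 on 9 arrays), with Benjamini-Hochberg adjustment over 24325 probes and a threshold of 0.05. The script was tested on simulated data. The number of arrays limits the precision.

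Symbols came from the platform annotation, and of the kept probes 15954 had 1 symbol and 8371 are unnamed here, so further members may be among the latter. Coordinates and promoters are from RefSeq, GRCh38.p14. For each drug against control the text names the 10 strongest rises and the 10 strongest falls that passed, with arrays not overlapping control (on 9 arrays where 0 passed on 12), 5 and 5 in other comparisons, the probes of a fixed list of 23 carriers, and genes whose probes disagree. SLC25A6, on that list, had no named probe here. The members and lists were chosen with earlier results of these data known. Alternatives were another background correction, offset, scaling, filter, probe choice, variance model and table, the replicate block, only the compared groups, and leaving out arrays.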

Additional observations from a re-analysis of the deposited data

Results flagged for a closer look

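For 10 of 43 member probes (23.3%) the change from 8 to 24 h differed between LTM and TFT in limma's interaction test (Benjamini-Hochberg), which is the LTM change minus the TFT change on the log2 scale. Of all probes 22.6% passed this test, so the members' share was near that of all probes. SLC25A23 (-1.96, SE 0.53, adjusted p = 0.0219), SLC25A1 (-1.53, adjusted p = 0.0212), SLC25A10 (-1.36, adjusted p = 0.0499) and SLC25A11 (-1.25, adjusted p = 0.0237) went lower under LTM than under TFT. So did SLC25A39 (-0.996, SE 0.21, adjusted p = 0.00795). SLC25A46 (1.30, SE 0.23, adjusted p = 0.00401), SLC25A20 probe 2 (1.38, adjusted p = 0.00442) and SLC25A13 (0.94, adjusted p = 0.0389) went higher. The probes of SLC25A24 parted, with probe 1 at -1.49 (SE 0.33, adjusted p = 0.00887) and probe 2 at 1.23 (SE 0.23, adjusted p = 0.00438).

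All 3 arrays left out of the 9-array fits enter this test. On the 9 arrays without them SLC25A10 no longer passed (-0.71, adjusted p = 0.0973), and the other 9 probes did, SLC25A23 at -1.19, SLC25A1 at -1.18, SLC25A11 at -0.95, SLC25A39 at -0.98, SLC25A46 at 1.24, SLC25A20 probe 2 at 1.20, SLC25A13 at 1.16, and SLC25A24 at -1.32 and 1.27 on probes 1 and 2. SLC25A28 (-0.95, adjusted p = 0.0199) and SLC25A37 (-0.84, adjusted p = 0.0125), with the lower change under LTM, and SLC25A12 (0.77, adjusted p = 0.0457), with the higher, passed on the 9 arrays and not on 12, which makes 12 of 43 against 27.9% of all probes.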

How the results depend on the processing

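Counts of changed members moved by over 1.5 times on the 9 arrays without the 3 nearer to another label, and the shares of all probes moved too. For LTM 8 h against control the count went from 0 to 17 (0% to 29.8% of all probes). For TFT 8 h against control it went from 0 to 1 (0% to 1.66%), and for LTM against TFT at 8 h from 0 to 14 (0% to 27.3%). Leaving out 1 array at a time gave 12 to 14 members for LTM 24 h against control (25.3% to 31.4% of all probes; 12 without control replicate 2 and 12 without LTM 24 h replicate 2), 0 to 5 for LTM 8 h against control (0% to 8.39%), 9 to 18 for LTM 24 h against 8 h (17.8% to 31.2%) and 10 to 13 for LTM against TFT at 24 h (24.9% to 31.0%). Calls that held in every such fit were 11 of 19 for LTM 24 h against control, 8 of 18 for LTM 24 h against 8 h and 9 of 24 for LTM against TFT at 24 h. Of the 19 calls at 24 h of LTM, SLC25A26 probe 2 was lost with a floor of 16 (adjusted p = 0.0839) and without the detection filter (0.102), SLC25A38 under median centring (0.0629) and without the filter (0.0655), and SLC25A51P4 in the processed table (0.09). No called value turned its sign in these fits. Only another background correction, offset, scaling or table, or leaving out a compared array, could move these fold changes. In the other fits they are the same by construction. Median centring moved the median of all probes at 24 h of LTM to -0.11, as did keeping only probes detected on all 12 arrays. Whether replicate numbers pair the arrays could not be told: 4 of 21 same-numbered pairs correlated above 0.1 (range -0.53 to 0.63). In groups of 2 arrays these correlations are equal and opposite by construction (0.04 and -0.04 for control replicate 1 with the TFT 24 h arrays). At 8 h the arrays nearer to another label enter them (-0.76 between TFT 8 h replicate 3 and LTM 8 h replicate 1). With the replicate block the count was 21 for LTM 24 h (43.8% of all probes) and 0 for LTM 8 h, TFT 8 h and TFT 24 h against control, 23 for LTM 24 h against 8 h (38.4%), 26 for LTM against TFT at 24 h (43.3%), and 0 for the other 2 comparisons. Groups of 2 or 3 arrays and signals near background limit SLC25A21, its antisense RNA, SLC25A25 probe 3 and SLC25A42 probe 2.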
